A study of Mus musculus with 5 samples.

Results

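Macrophages kept with bacterial lipopolysaccharide (LPS) for 21 h were compared with unexposed macrophages (0 h), 1 array each of the 5 in the series. The cells came from C3H/HeJ mice and were grown from bone marrow with human CSF-1, a growth factor of the macrophage lineage. The 21 h cells received 10 µg/ml LPS from S. minnesota and the 0 h cells none. Further arrays held cells after 0.5, 2 and 7 h at the same dose. The sources used here do not give the age and number of the mice or the cultures behind each array. Every array was a two-colour hybridisation against total RNA of whole C57BL6/J embryos of 17.5 days, and all 5 share that reference. A value is therefore a log ratio of macrophage to embryo, and the quantity described here is the difference of 2 such ratios, 21 h minus 0 h, in log10 units. The direction of the ratio is likely and not stated, since macrophage genes read high and embryo genes low, and the log base is read as 10, also not stated.

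Of 19828 probes on the array, 19497 had a value on both arrays. Probes with 1 gene symbol gave 8956 genes, of 9050 with a value on any of the 5 arrays; 3215 had 2 or more probes and 5741 had 1. After subtraction of each array's median over the shared probes, the probes of a gene were averaged. A gene was called higher or lower from a 2-fold difference on, which is 0.301 on the log10 scale. With 1 array per group there was no replicate and no test. The SD given is the spread between probes of a gene on these arrays, and not an error between cultures or hybridisations. A cDNA probe can also take up transcripts of close relatives of its gene, so members of multigene families are uncertain.

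LPS is sensed at the macrophage surface by Toll-like receptor 4 with its partner MD-2, after transfer by the LPS-binding protein and CD14. The receptor signals through MyD88 to NF-kB and MAP kinases, which switch on cytokine and immediate early genes, and through TRIF to IRF3 and type I interferon, which in turn switches on antiviral genes through JAK kinases, STAT factors and IRF9. C3H/HeJ mice carry a point mutation in Tlr4 that leaves their macrophages hyporesponsive to LPS, while Toll-like receptor 2, the sensor of bacterial lipoproteins, is intact. Long exposure to LPS is known to turn off many early inflammatory genes and to alter the metabolism and trafficking of the cell.

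By the median of the probes, the deposited log ratios lay at 0.04 at 0 h and at 0.03 at 21 h, and the spread over probes was alike (SD 0.33 and 0.32). Over probes, the 21 h array correlated with the 0 h array at 0.75 and the 2, 7 and 0.5 h arrays at 0.85, 0.84 and 0.48. Abundant macrophage genes mostly read above 0 and the embryo genes named here below it. The direction of the ratio was read from such levels, so they are no separate check of the macrophage label. Lyz2, the lysozyme of myeloid cells, read 1.10 at 0 h and 1.19 at 21 h, and Lcp1, the leukocyte actin bundler, 1.18 and 1.36. Of 24 measured macrophage identity genes, 20 read above 0 at 0 h and 21 at 21 h. Cd68, a lysosomal glycoprotein of macrophages, read below 0 on both arrays (-0.18 and -0.11). The embryo's Hbb-b1 globin read -1.91 and -1.85, and Alb, its liver albumin, -1.80 and -1.57. Csf1r and Adgre1 were not measured.

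Across all genes, 468 of 8956 were higher at 21 h (5.23%) and 387 were lower (4.32%). The median difference was 0.01 and 54.0% of genes lay above 0. Agreement between probes was slight. Across the genes with 2 or more probes, the lowest-numbered and the highest-numbered probe of a gene had a Pearson correlation of 0.10 in the difference, beside 0.40 in the log ratio itself at 0 h and 0.37 at 21 h; these genes are points on the same 2 arrays and not replicates. The pooled SD between probes of a gene was 0.20. Past the 2-fold rule were 12.5% of the genes with 1 probe and 4.35% of those with more. Of the 3215 genes with 2 or more probes, 727 had every probe above 0, 565 had every probe below 0, and 1923 had probes of both signs. Only 11 had every probe past the rule upwards (0.342%) and 14 downwards (0.435%).

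The side on which a probe fell also went with its number on the array. Probes numbered 1 to 6000 are 30.5% of all probes, and held 59.6% of the probes past the rule upwards and 3.74% of those past it downwards. Among numbers 18001 to 19828 the order was turned, with 24.03% of probes lower and 5.39% higher, and among 8001 to 10000, 13.8% were lower and 2.72% higher. The sources used here do not give what the numbers stand for on the slide, and the part of position in any gene's value was not tested. For this reason probe numbers stand beside some of the values. Many other genes are named without them, so the text does not show where those probes lie. Some list medians are also given with a running median over 400 probe numbers taken away. The plot of list medians shows both for the 49 lists with 5 or more measured members.

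**Figure D1:**
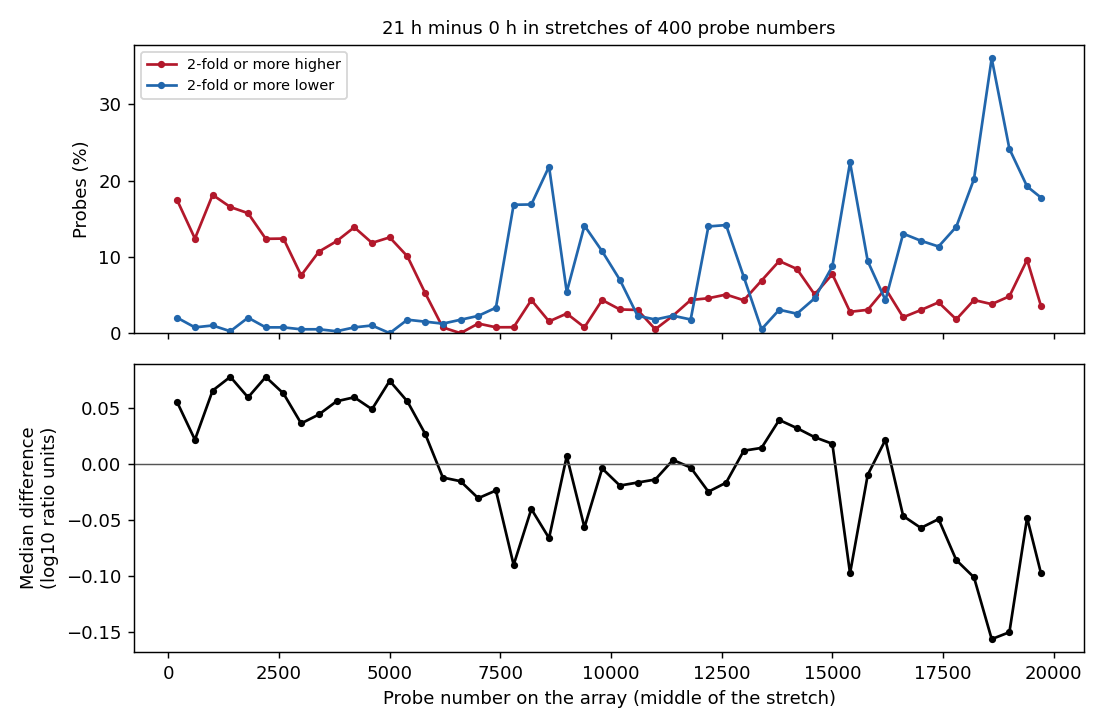
Share of probes 2-fold or more higher (red) or lower (blue) at 21 h than at 0 h, in percent, and median difference in log10 ratio units, in consecutive stretches of 400 probe numbers (middle of the stretch on the x axis). Higher probes gather at numbers up to 6000, and the lowest medians lie above 18000.

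Of the 11 genes with every probe higher, 10 had probes in 2 or more stretches of 2000 numbers. Jak1, the tyrosine kinase that interferon and many cytokine receptors share, was higher by 0.37 ± 0.02 (SD over 2 probes), or 2.33-fold. Its probe 403 read 0.29 at 0 h and 0.67 at 21 h, and its probe 10518 read 0.04 and 0.39. Averaged over both probes it read 0.10, 0.15 and 0.19 at 0.5, 2 and 7 h, so 21 h was the highest of the 5 arrays. Both probes, far apart in number, gave nearly the same difference.

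Znrf2, a membrane-bound ubiquitin ligase of endosomes and lysosomes, was higher by 0.37 ± 0.05 over 3 probes. The probes read 0.00, 0.09 and 0.02 at 0 h and 0.35, 0.52 and 0.36 at 21 h, and the highest mean among the other arrays was 0.09, at 0.5 h. Gsto1, a glutathione transferase of the omega class, was higher by 0.45 ± 0.16 over 2 probes, from -0.31 and -0.19 to 0.26 and 0.15. Its means at 0, 2, 7 and 21 h were -0.25, -0.21, -0.11 and 0.20, which places 21 h above the others. Fabp5, a carrier of fatty acids made by macrophages and epidermis, was higher by 0.39 ± 0.04 over 3 probes. Its probes read -0.77, -0.60 and -0.81 at 0 h, and -0.42, -0.22 and -0.38 at 21 h, so that the lowest 21 h value lay above the highest 0 h value. The 2 and 7 h means both lay at -0.76, and the 0.5 h mean was -0.30 with its probes spread from -0.85 to 0.20.

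Med25, a subunit of the Mediator complex, was higher by 0.55 ± 0.26 (2 probes, numbers 389 and 16270), and Fam20b, a kinase of glycosaminoglycan assembly, by 0.38 ± 0.09 (13294 and 15862). Dkkl1, a secreted relative of the Dickkopf proteins, differed by 0.48 ± 0.16, and the uncharacterised 2610001J05Rik by 0.51 ± 0.21 over 3 probes. In the remaining genes every probe had a number under 6000. Tril, a transmembrane accessory of Toll-like receptors 4 and 3, was higher by 0.61 ± 0.24, Ppp3ca, the catalytic subunit of calcineurin, by 0.48 ± 0.21, and Atg13, part of the kinase complex that starts autophagy, by 0.43 ± 0.05, each over 2 probes. All 11 genes stood above the 0, 2 and 7 h arrays at 21 h, but at 0.5 h Dkkl1 (0.76), Atg13 (0.47), Ppp3ca (0.31) and Fabp5 (-0.30) read above their 21 h values of 0.40, 0.40, 0.13 and -0.34. This sorting by probe number, here and for the lower genes, was made after the values were seen.

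**Figure D2:**
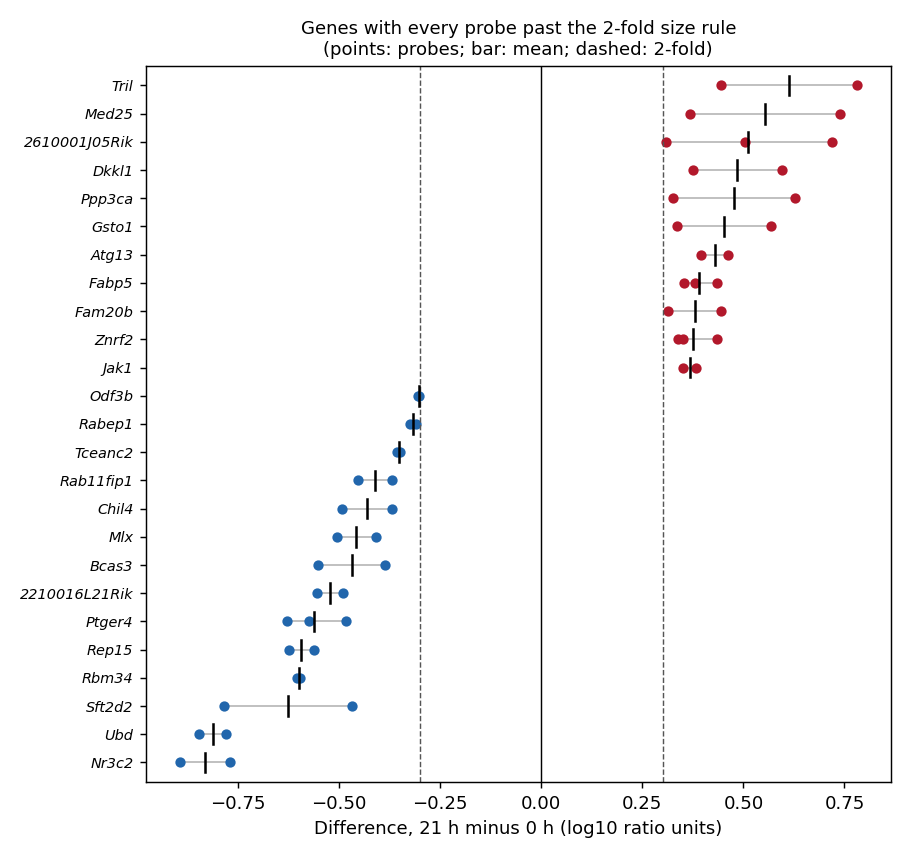
Difference between 21 h and 0 h (log10 ratio units) of every probe (points) of the 25 genes with 2 or more probes all past the 2-fold rule (dashed lines); the black bar is the mean of the probes. Jak1 has the closest probes on the higher side, and Nr3c2 and Ubd the lowest means.

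On the lower side, 9 of the 14 genes had all their probes between numbers 7595 (Odf3b) and 10004 (Rep15). Ubd, the ubiquitin-like modifier FAT10 that interferon-gamma and TNF induce, differed by -0.81 ± 0.05 over probes 8449 and 8498. It read 0.69, 2.78, 1.38, 1.41 and -0.12 at 0, 0.5, 2, 7 and 21 h. Ptger4, the EP4 receptor for prostaglandin E2, differed by -0.56 ± 0.07 over 3 probes, with 0.67, 0.11, 1.74, 1.37 and 0.10 at 0, 0.5, 2, 7 and 21 h. Its 0.5 h level was thus as low as its 21 h level, while that of Ubd was the highest of the 5. Both genes were above the 0 h array at 2 and 7 h and below it at 21 h. Rbm34, an RNA-binding protein whose probes are numbered 8446 and 8447, had the same order (0.59, 1.17, 1.16 and -0.01 at 0, 2, 7 and 21 h), and so had Nr3c2, the mineralocorticoid receptor, at 8632 and 8644 (0.67, 1.24, 0.89 and -0.16). At 0.5 h Rbm34 read 2.65 and Nr3c2 1.60, the highest of the 5 arrays for each, like Ubd.

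This order was common among neighbours. Of the 246 other probes with numbers between those of Ptger4, 25.2% were 2-fold lower at 21 h, beside 7.29% elsewhere. Among them 18 were 2-fold higher than 0 h at both 2 and 7 h and 2-fold lower at 21 h, beside 89 of 19248 elsewhere. The part of position in the values of Ptger4 and Ubd was not tested. Rep15 (-0.59), Sft2d2 (-0.63), Rab11fip1 (-0.41), Tceanc2 (-0.35) and Odf3b (-0.30) complete the genes of that band. Of these, Rep15 (1.48) and Rab11fip1 (0.56) were also highest at 0.5 h, and Sft2d2, Tceanc2 and Odf3b were not.

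The 5 lower genes with a probe outside that band were Mlx, Bcas3, Rabep1, Chil4 and 2210016L21Rik. Mlx, the partner of the glucose-sensing MondoA and ChREBP factors, differed by -0.46 ± 0.07 over probes 15107 and 17333. Its probes went from 0.50 and 0.40 at 0 h to 0.09 and -0.11 at 21 h. Rabep1, an effector of Rab5 in early endosome fusion, differed by -0.32 ± 0.01 over probes 2642 and 17340, which read 0.09 and 0.04 at 0 h and -0.23 and -0.27 at 21 h. Its means at 2 and 7 h were both -0.12, between those of 0 and 21 h. Bcas3, a cytoskeletal and autophagy protein, differed by -0.47 ± 0.12 over probes 3366 and 15281. Lower probes were also common near some numbers of Mlx and Bcas3, at 22.4% of probes 15201 to 15600 and 11.4% of 17201 to 17600. Chil4, a secreted chitinase-like protein of alternatively activated macrophages, differed by -0.43 ± 0.09, from 0.15 to -0.28. It has close relatives in the chitinase-like family, so its probes may read more than 1 gene.

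**Figure D3:**
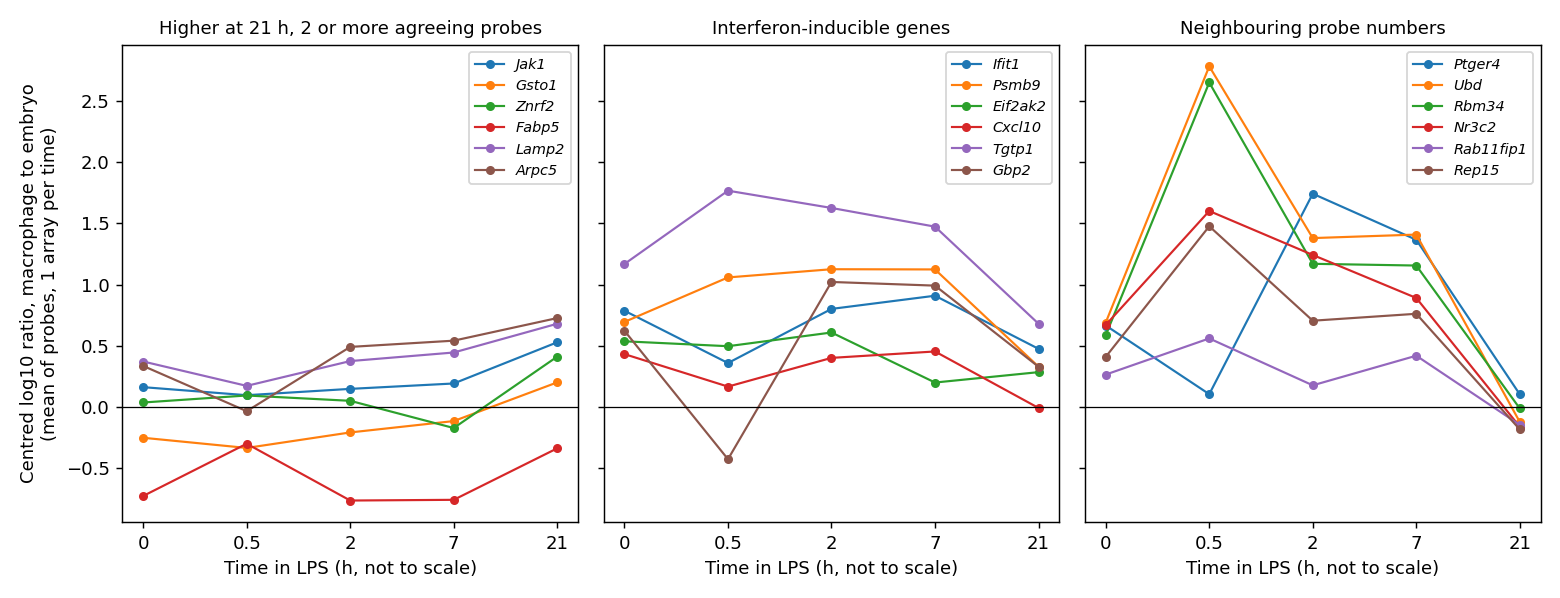
Centred log10 ratio of macrophage to embryo (mean of the probes, 1 array per time, no error between arrays available) of 18 genes at 0, 0.5, 2, 7 and 21 h in LPS. Jak1, Gsto1, Znrf2, Lamp2 and Arpc5 are highest at 21 h, Cxcl10 and Tgtp1 are lowest there, and Ubd and Ptger4 are above their 0 h value at 2 and 7 h and below it at 21 h.

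The first step of LPS sensing was thinly measured. Of 7 recognition genes with a value, 1 was higher (14.3%, beside 5.23% of all genes) and none lower. Ly86, which encodes MD-1, the partner of the Toll-like receptor homologue RP105, was higher by 0.65 on its 1 probe (number 859). It read 0.07, -0.10, -0.16, -0.03 and 0.72 at 0, 0.5, 2, 7 and 21 h, so that 21 h stood apart from all the others. Tlr2 differed by 0.28 on 1 probe, and Traf6, the ubiquitin ligase below MyD88, by 0.30 with its 2 probes at 0.72 and -0.13. Cd36 (0.09 ± 0.09 over 7 probes) and Irak1 (0.09) lay nearer to 0, and Marco, a scavenger receptor, at -0.06. The list median was 0.09, and 0.08 with the running median taken away.

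Below the receptors, the NF-kB, MAP kinase and immediate early lists each had 1 higher gene. Among 15 NF-kB genes, Birc3, an inhibitor of apoptosis that NF-kB induces, was higher by 0.51 (1 probe) and none was lower. That share of 6.67% is near the 5.23% of all genes. The inhibitors Nfkbie and Nfkbia differed by -0.22 and -0.13. Of 29 MAP kinase and phosphatase genes 1 was higher (Mapk12, 0.36) and 3 were lower. The shares were 3.45% and 10.3%, beside 5.23% and 4.32% of all genes. The lower ones were Dusp19 (-0.86) and Dusp3 (-0.49), each on 1 probe, and Map2k2 (-0.52), whose 2 probes read -1.08 and 0.05. Of 17 immediate early factors, Egr2 was higher by 0.36 and Fos differed by -0.39, each on 1 probe. Each makes 5.88% of the list, near the shares of all genes. The medians of the NF-kB, MAP kinase and immediate early lists were 0.07, 0.03 and -0.02, and the first went to 0.02 with the running median taken away.

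Interferon genes were listed separately as those of the signalling chain and those of the antiviral output. In the chain, 3 of 21 measured genes were higher (14.3%) and 1 was lower (4.76%), beside 5.23% and 4.32% of all genes. The higher ones were Jak1, Stat2 (0.32, 1 probe) and Pias2 (0.67, 1 probe), an inhibitor of STAT activity. Cish, a feedback inhibitor of cytokine receptors, differed by -0.31. Irf7, the amplifier of type I interferon, differed by 0.27 ± 0.13 with its probes at 0.18 and 0.36, and Irf9, a DNA-binding factor of interferon signalling, by 0.28. Of these 21 genes 16 lay above 0, with a median of 0.07 (0.05 with the running median taken away). The members of this list with 2 or more probes had every probe higher in 3 genes, every probe lower in none and mixed signs in 3.

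Among 31 antiviral effectors, 5 were lower (16.1%, beside 4.32% of all genes) and 1 was higher (3.23%, beside 5.23%). Ifit1, which binds viral RNA caps, was lower by 0.31 ± 0.03 over 2 probes with -0.33 and -0.29; the probes read 0.85 and 0.73 at 0 h, and 0.51 and 0.44 at 21 h. The 2 and 7 h means of Ifit1 were 0.80 and 0.91, above 21 h. Psmb9, a subunit of the immunoproteasome, differed by -0.37 ± 0.16 over 2 probes, with 0.70, 1.13, 1.12 and 0.33 at 0, 2, 7 and 21 h. Cxcl10, a chemokine that draws T cells, differed by -0.44 on 1 probe, from 0.43 to -0.01. The 2 probes of a gene disagreed in Rsad2 (-0.37, probes at -0.74 and -0.01) and Oasl2 (-0.35, probes at 0.12 and -0.81). Short of the rule, both probes of Eif2ak2, the kinase PKR, lay below 0 (-0.28 and -0.22), as did both of Psme2, an activator subunit of the immunoproteasome (-0.29 and -0.14).

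Other effectors lay on the opposite side. Ifi204 was higher by 0.33, and Oas1a (0.29), Ifi30 (0.27), Ifit3 (0.25) and Ifit2 (0.14) lay above 0, each on 1 probe. Lgals9, the lectin galectin-9, had both probes above 0 (0.25 and 0.21). The list as a whole had a median of 0.01, the same as that of all genes, with quartiles at -0.20 and 0.14. Of its members 51.6% lay above 0, beside 54.0% of all genes. Of the 12 effectors with 2 or more probes, 5 had every probe lower, 2 every probe higher and 5 mixed. Of 5 interferon-inducible GTPases, which attack the vacuoles of parasites, Tgtp1 was lower (-0.49, from 1.17 to 0.68) and Gbp2 differed by -0.29, each on 1 probe. The 1 lower gene makes 20.0% of this short list, beside 4.32% of all genes, and none was higher. The median of Interferon-inducible GTPases was -0.15 against 0 h, and 0.03 against the mean of the 0, 2 and 7 h arrays, so its direction depends on that choice.

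Interferon reaches its target genes through the interferon-stimulated response element, to which IRF factors bind. The following sequences show where that element lies in 4 genes whose difference lay below 0 and in Ifit3, whose difference lay above 0. They are the 250 bases before the RefSeq start of each gene in GRCm38.p6, 5′ to 3′ on the gene's strand, with each match to GAAANNGAAA on either strand in capitals. The assembly is that of C57BL/6J, and the sequence of C3H/HeJ was not read. The intervals are chr19:34640639-34640888 (plus strand) for Ifit1, chr5:92348890-92349139 (minus) for Cxcl10, chr11:48992247-48992496 (minus) for Tgtp1, chr3:142620413-142620662 (plus) for Gbp2 and chr19:34583279-34583528 (plus) for Ifit3.
Ifit1: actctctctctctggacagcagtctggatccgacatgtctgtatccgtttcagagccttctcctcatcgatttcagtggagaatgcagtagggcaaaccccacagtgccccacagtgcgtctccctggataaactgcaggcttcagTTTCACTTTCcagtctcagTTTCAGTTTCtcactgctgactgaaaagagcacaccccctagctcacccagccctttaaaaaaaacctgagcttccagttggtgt
Cxcl10: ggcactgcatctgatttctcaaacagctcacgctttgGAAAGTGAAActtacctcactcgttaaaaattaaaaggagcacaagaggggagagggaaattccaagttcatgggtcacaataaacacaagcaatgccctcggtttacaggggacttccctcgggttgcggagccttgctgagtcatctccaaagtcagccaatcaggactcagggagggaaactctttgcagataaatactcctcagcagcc
Tgtp1: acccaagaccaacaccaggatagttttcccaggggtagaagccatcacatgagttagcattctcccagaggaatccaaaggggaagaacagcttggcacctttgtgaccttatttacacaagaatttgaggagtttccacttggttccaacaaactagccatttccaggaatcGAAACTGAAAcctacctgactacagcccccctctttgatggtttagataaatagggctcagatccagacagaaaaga
Gbp2: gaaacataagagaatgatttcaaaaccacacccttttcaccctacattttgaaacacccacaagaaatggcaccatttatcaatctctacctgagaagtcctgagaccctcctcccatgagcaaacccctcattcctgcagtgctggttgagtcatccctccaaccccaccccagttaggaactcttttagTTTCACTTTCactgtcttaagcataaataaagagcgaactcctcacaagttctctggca
Ifit3: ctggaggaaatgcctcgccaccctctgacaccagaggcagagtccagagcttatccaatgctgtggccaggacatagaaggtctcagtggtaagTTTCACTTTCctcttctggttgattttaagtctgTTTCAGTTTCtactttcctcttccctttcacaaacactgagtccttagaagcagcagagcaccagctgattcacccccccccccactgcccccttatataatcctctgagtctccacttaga

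Ifit1 and Ifit3 each hold 2 matches, at 104 to 95 and 85 to 76 bases before the start in Ifit1 and at 156 to 147 and 122 to 113 in Ifit3. Cxcl10 holds 1 at 213 to 204, Tgtp1 1 at 77 to 68 and Gbp2 1 at 59 to 50. Cxcl10 also holds the NF-kB pattern GGGANNNNCC on the plus strand at 159 to 150 and, on both strands of the same letters, at 103 to 94. Over all 32851 RefSeq promoters, 2.98% hold the interferon pattern and 17.6% the NF-kB pattern in this window, on either strand. Of the 30 measured interferon effectors and GTPases with a RefSeq promoter, 12 hold the first and 9 the second. Here a gene counts if any of its promoters holds the pattern, whereas the shares over all promoters count each promoter singly. The 12 with the interferon pattern had a median difference of -0.11, with 5 above 0 and 4 lower by the rule. The 18 without it had a median of 0.04, with 10 above 0 and 2 lower. A match is a description of letters and says nothing of binding. Ifit3, with 2 matches like Ifit1, read on the other side of 0.

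Secreted signals gave no higher gene. The lower ones were Cxcl12 (-0.46), Ccl24 (-0.45) and Cxcl10, each on 1 probe, and the list median was -0.04. Cxcl12 attracts haematopoietic cells and Ccl24 eosinophils. Among 12 receptors none was higher and 1 was lower (8.33%, beside 4.32% of all genes), Tnfrsf1a, the main receptor for TNF (-0.31, 1 probe). Of 22 inducible effectors of activated macrophages 2 were lower (9.09%) and 1 was higher (4.55%), beside 4.32% and 5.23% of all genes. The lower ones were Ubd and Plaur, the urokinase receptor, which differed by -0.55 on 1 probe, from 0.80 to 0.25. Cd55, the membrane inhibitor of complement convertases, was higher by 0.96 on 1 probe (number 759), with -0.44, -0.50, -0.37 and -0.51 on the earlier arrays and 0.51 at 21 h. The acute-phase gene Saa3 (-0.30) and the mitochondrial superoxide dismutase Sod2 (-0.22) lay short of the rule.

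Prostanoid genes held Ptger4, and the thromboxane receptor Tbxa2r (-0.63, 1 probe, number 9223), which read 0.56, 2.15, 1.002 and -0.07 at 0, 2, 7 and 21 h. Pla2g4a, the phospholipase that frees arachidonic acid, was higher by 0.32 on 1 probe. In complement and coagulation 3 of 27 genes were higher (11.1%, beside 5.23% of all genes) and 1 was lower (3.70%, beside 4.32%). Cfp, the complement stabiliser properdin, was higher by 0.37, and Tfpi2, an inhibitor of coagulation proteases, by 0.51. In antigen presentation 2 of 16 genes were lower (12.5%, beside 4.32% of all genes) and none higher. Ctss, the cathepsin that trims the invariant chain, read 1.76, 1.65, 1.90 and 1.29 at 0, 2, 7 and 21 h on 1 probe. H2-Aa, a class II chain, differed by -0.34 ± 0.20 with both probes below 0, and B2m, the light chain of class I, by 0.21 ± 0.17 with all 3 probes above 0. Syk, the kinase below Fc receptors, differed by -0.37 on 1 probe, alone among 15 Fc receptor and adaptor genes (6.67%, beside 4.32% of all genes).

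In the lysosomal and the actin list no gene had all its probes lower at 21 h. The macrophage identity list, which shares Cd68, Ctsb, Ctss, Ctsz and Laptm5 with the first and Arhgdib, Coro1a, Lcp1 and Rac2 with the second, had 4 genes with every probe higher, none with every probe lower, 18 of 24 above 0 and a median of 0.07. The apoptosis list (5 and none) and the interferon signalling list (3 and none) were alike in this. Of 24 lysosomal genes with 2 or more probes, 11 had every probe above 0, none had every probe below 0 and 13 were mixed, beside 727, 565 and 1923 of 3215 over all such genes. Lamp2, a major protein of the lysosomal membrane, was higher by 0.31 ± 0.12 over 3 probes. Its probes read 0.29, 0.46 and 0.37 at 0 h and 0.63, 0.87 and 0.54 at 21 h, so that the 21 h values lay above every 0 h value. Atp6ap1, an accessory of the proton pump, differed by 0.24 ± 0.04 over 2 probes, the protective protein Ctsa by 0.18 ± 0.05, and the peptidase Tpp1 by 0.15 ± 0.00. Asah1, the acid ceramidase, was past the rule at 0.30 on 1 probe. Of all 54 measured members 2 were higher (3.70%) and 1 (Ctss) was lower (1.85%), beside 5.23% and 4.32% of all genes. Of these members 34 lay above 0, with a median of 0.05 (0.06 with the running median taken away). Among the 11 genes with every probe above 0, Lamp2 alone reached 2-fold.

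In the list of phagocytosis and the actin cytoskeleton, 13 of 40 genes with 2 or more probes had every probe above 0, none had every probe below 0 and 27 were mixed. Of all 62 members 5 were higher (8.06%, beside 5.23% of all genes) and none lower. Of these members 43 lay above 0, with a median of 0.06 (0.05 with the running median taken away). Arpc5, a subunit of the Arp2/3 complex that branches actin filaments, was higher by 0.39 ± 0.13, with its 2 probes going from 0.40 and 0.27 to 0.70 and 0.75. Its means at 2 and 7 h, 0.49 and 0.54, lay between. Arpc4, a second subunit, was higher by 0.46 on 1 probe, but had already reached 0.46 at 2 h and 0.57 at 7 h, from 0.04 at 0 h to 0.50 at 21 h. Anxa4 (0.34 ± 0.16), a calcium-dependent membrane binder, Tpm3 (0.32 ± 0.07), a tropomyosin, and Capg (0.37, 1 probe), a capper of filament ends in macrophages, were also past the rule. Cofilin, which severs filaments, differed by 0.20 ± 0.12 over 5 probes of Cfl1, all above 0. Radixin, Rdx, which ties actin to the membrane, differed by 0.22 ± 0.01 over probes 4673 and 14541.

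**Figure D4:**
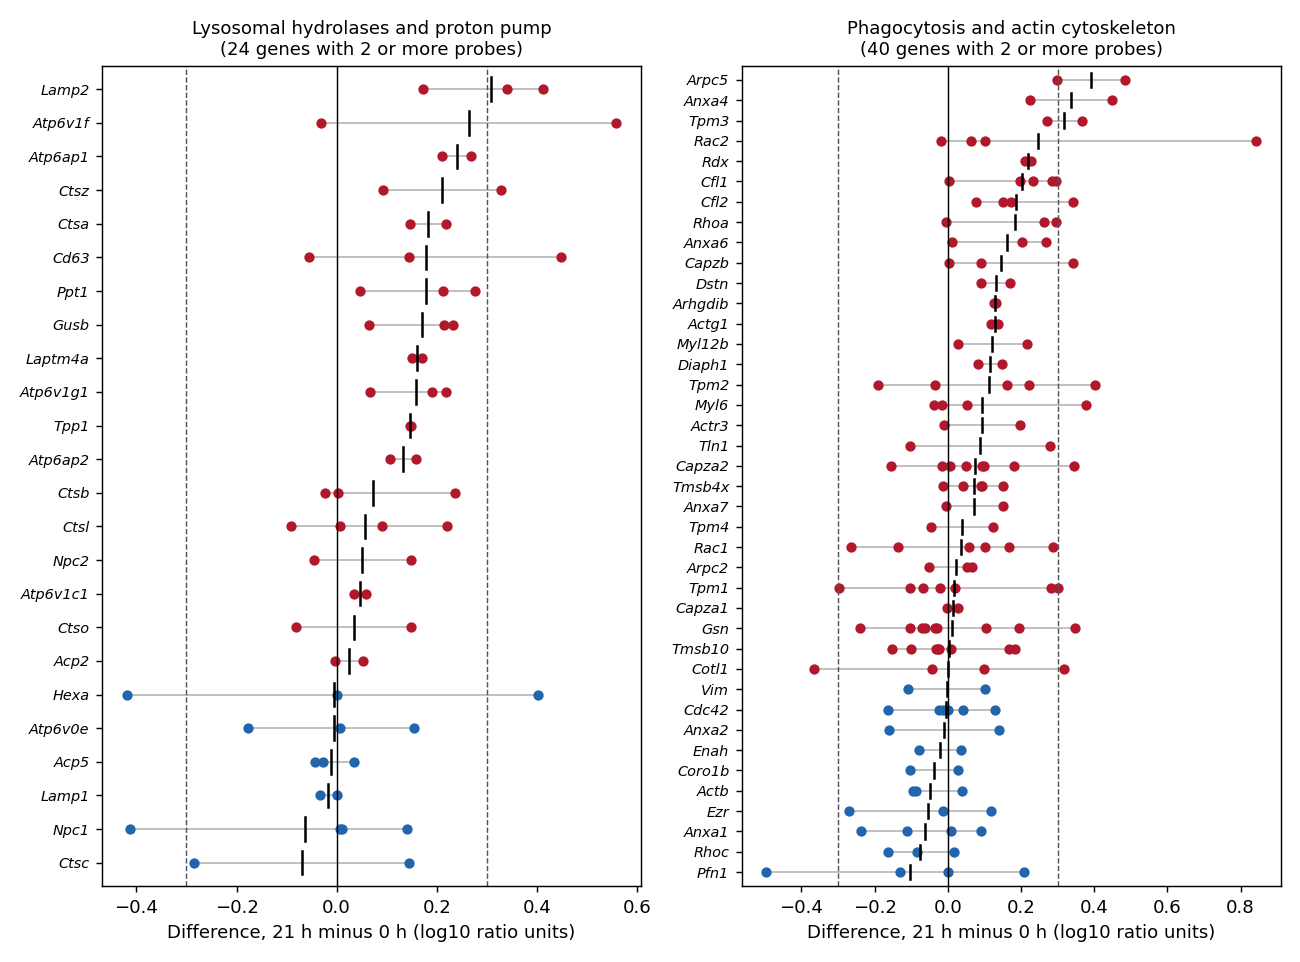
Difference between 21 h and 0 h (log10 ratio units) of every probe (points) of the lysosomal (24 genes) and actin (40 genes) members with 2 or more probes; black bar, mean of the probes; dashed lines, 2-fold. In 11 and 13 genes all points lie above 0, and in none do all lie below.

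Endosomal and secretory genes had more members with every probe higher than with every probe lower. So had all genes with 2 or more probes (727 and 565 of 3215). Of 35 autophagy and endosomal genes with 2 or more probes, 15 had every probe higher and 3 every probe lower, and of all 75 measured 3 were higher and 2 lower, with a median of 0.04. Snx2, a sorting nexin of the retromer, was higher by 0.39 ± 0.14 over probes 4073 and 11103, and read 0.28, 0.29, 0.45 and 0.67 at 0, 2, 7 and 21 h. Map1lc3b, a mark of autophagosomes, went the other way at -0.14 ± 0.00 over 2 probes. Among 36 genes of the endoplasmic reticulum and its stress response 3 were higher (8.33%, beside 5.23% of all genes) and none lower. The median was 0.07, with or without the running median taken away. Of the 24 genes with 2 or more probes, 7 had every probe higher, 3 every probe lower and 14 were mixed. Hsp90b1, the chaperone GRP94 that folds Toll-like receptors and integrins, was higher by 0.30 ± 0.14 (2 probes, from 0.16 and 0.30 to 0.36 and 0.70), and Pdia4, a disulfide isomerase, by 0.42 on 1 probe. Pdia3, a further isomerase, differed by 0.19 ± 0.03 over 3 probes but was higher at 7 h (0.43) than at 21 h (0.34). The stress sensor Eif2ak3, or PERK, had both probes below 0 (-0.11 ± 0.12).

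Redox and iron genes added single differences. Of 57 antioxidant genes 5 were higher (8.77%) and 1 was lower (1.75%), beside 5.23% and 4.32% of all genes, with a median of 0.03. Besides Gsto1, the higher ones were Gsta3 (0.48), Gstm1 (0.31), Blvra (0.43), the biliverdin reductase, and Hmox2 (0.31 ± 0.19 over 2 probes), the constitutive haem oxygenase. Glutathione transferases are a multigene family, so Gsta3 and Gstm1 are uncertain. Gclm, a subunit of the enzyme that makes glutathione, differed by 0.17 ± 0.04 with all 3 probes above 0. Nqo1, a quinone reductase induced by Nrf2, differed by -0.35 ± 0.36 over 3 probes, a spread as large as the difference. Steap3, the ferrireductase of endosomes, was higher by 0.49 with probes at 0.88 and 0.11, and Alas1, which begins haem synthesis, by 0.48 on 1 probe.

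In energy metabolism no respiratory chain gene of 75 passed the rule in either direction, and their median was 0.03. Cox5b, a subunit of cytochrome oxidase, differed by 0.19 ± 0.05 over 4 probes, each above 0, from a mean of -0.19 to 0.00. Of 62 such genes with 2 or more probes, 15 had every probe higher and 6 every probe lower. Glycolysis had a median of -0.00, with Pfkm (0.43), the muscle-type phosphofructokinase, and Slc2a3 (0.31), the GLUT3 glucose carrier, higher on 1 probe each, and none lower. In 3 of its genes every probe was lower, and these were the phosphofructokinases Pfkp (-0.18 ± 0.04) and Pfkl (-0.12 ± 0.12) and Taldo1 (-0.15 ± 0.07). The citrate cycle and fatty acid oxidation list had a median of 0.07 and 2 higher genes of 37 (5.41%, beside 5.23% of all genes). These were Dld (0.47), shared by the 2-oxoacid dehydrogenases, and Ehhadh (0.34). In sterol and fatty acid synthesis Fads1 (0.52), a desaturase, was higher and Fads3 (-0.33) lower, and Cyp51, the lanosterol demethylase, differed by 0.29 ± 0.08 with both probes above 0.

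In protein synthesis and turnover the list medians lay near that of all genes. Cytosolic ribosomal proteins had a median of 0.04 and 1 of 72 higher (1.39%, beside 5.23% of all genes), Rpl10 (0.30), which has close copies. In 10 genes of that list the probes were all higher and in 10 all lower. Of 73 mitochondrial ribosomal genes 2 were lower (2.74%, beside 4.32% of all genes) and none higher. Of 78 proteasome and ubiquitin genes, Ube2j2 was higher (0.70) and Psmg4 (-0.39) and Psmb9 were lower. These make 1.28% and 2.56% of the list, beside 5.23% and 4.32% of all genes. The constitutive subunits Psma3 (0.27 ± 0.01 over 2 probes) and Psmd12 (0.19 ± 0.03 over 4 probes) lay above 0 on every probe. Of the interferon-inducible subunits, Psmb9 and Psme2 lay below 0 on every probe, Psme1 (0.07, 2 probes) and Psmb10 (0.16, 1 probe) lay above 0, and Psmb8 was at -0.01 over 7 probes. In all, 11 genes of this list had every probe higher and 7 every probe lower. Heat shock proteins and chaperones had 5 of 90 higher (5.56%, beside 5.23% of all genes), none lower and a median of 0.03.

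The cell cycle list had 5 of 91 higher (5.49%), 2 lower (2.20%) and a median of -0.00, beside 5.23% and 4.32% of all genes. Mki67 (0.45), the antigen Ki-67, E2f1 (0.46) and the helicase subunit Mcm6 (0.34) were higher on 1 probe each, and Kif23 (-0.42) and Ncapd2 (-0.33), which act in mitosis, were lower. Of its genes with 2 or more probes 8 had every probe higher and 8 every probe lower. Of 39 apoptosis genes 5 were higher (12.8%, beside 5.23% of all genes), among them Bcl2l2 (0.50) and Aifm1 (0.43), and 2 lower (5.13%, beside 4.32%), Mdm4 (-0.76) and Dffb (-0.31). Solute carriers, the longest list, had 11 of 138 higher (7.97%) and 14 lower (10.1%) with a median of -0.01. Slc1a5, the neutral amino acid carrier, differed by -0.37 ± 0.45 with all 3 probes below 0.

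**Figure D5:**
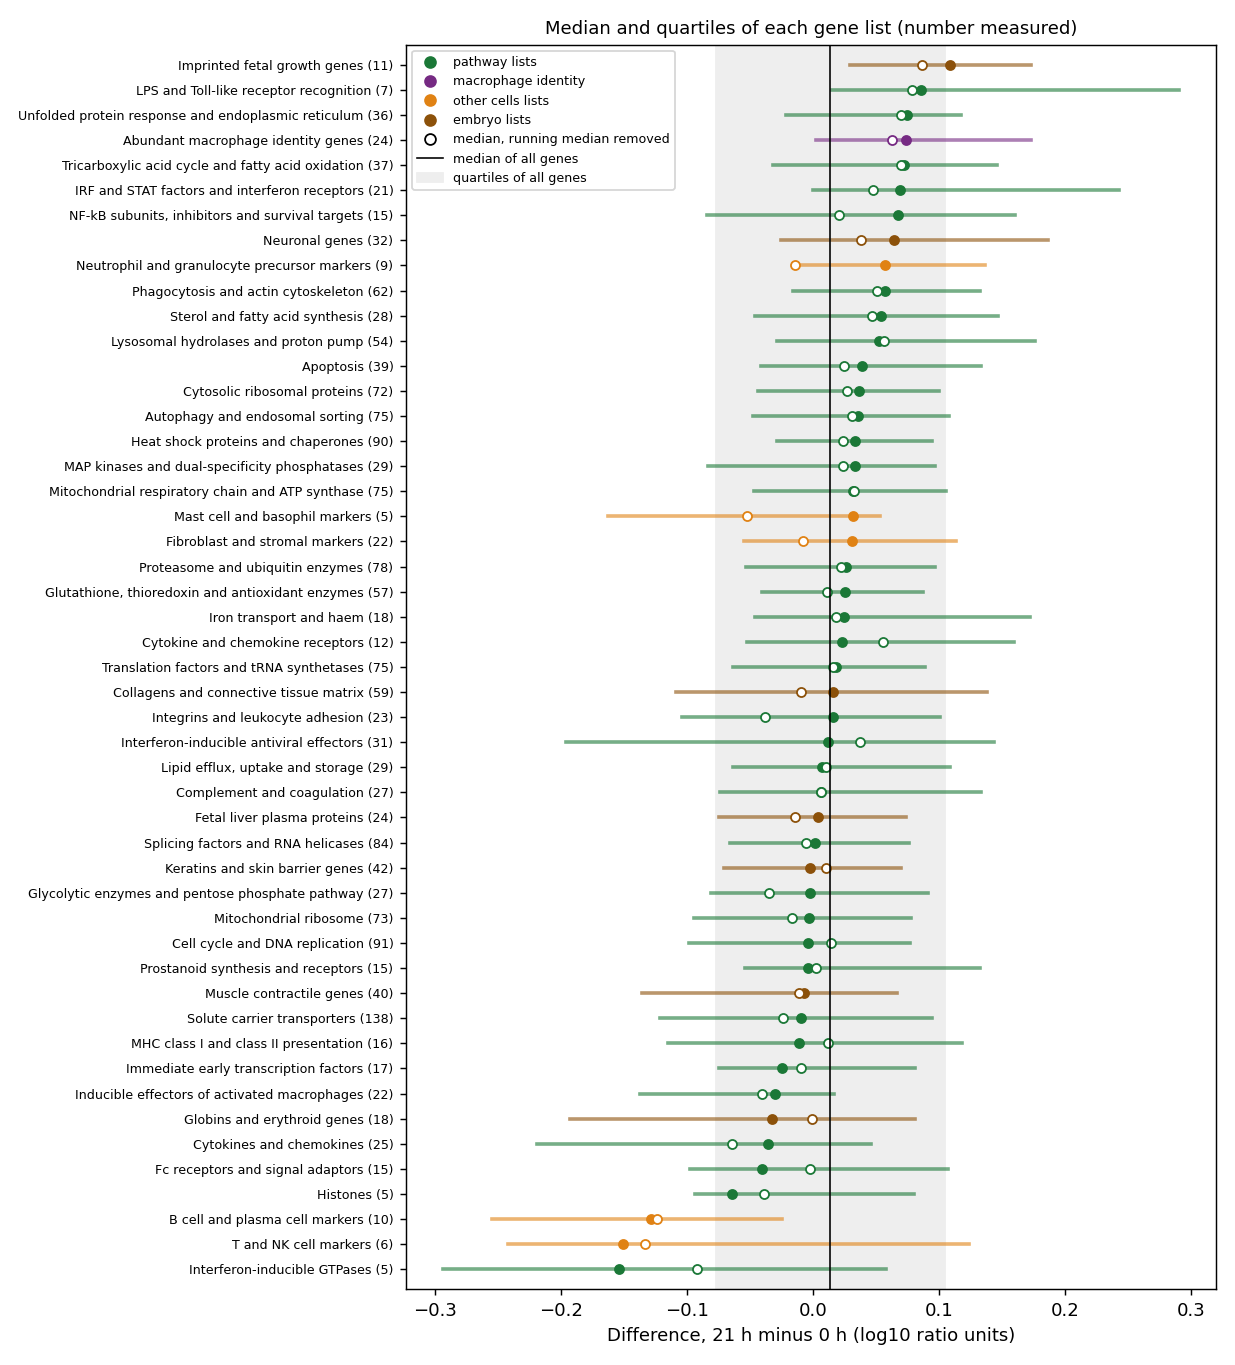
Median (filled) and quartiles (bar) of the difference between 21 h and 0 h, in log10 ratio units, of the 49 gene lists with 5 or more measured members (number in brackets), coloured by kind; open circles are medians with the running median over probe numbers taken away. The vertical line and grey band are the median and quartiles of all genes. List medians run from -0.15 for Interferon-inducible GTPases (0.03 against the mean of the 0, 2 and 7 h arrays) to 0.11 for imprinted fetal growth genes.

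Markers of other cells were measured thinly. Of 6 T and NK cell genes none was higher and 1 was lower (16.7%, beside 4.32% of all genes), Gzma (-0.31, 1 probe). The list median was -0.15 (-0.13 with the running median taken away). Only 2 members lay above 0, the receptor chains Cd3g (0.30) and Cd3d (0.19). Of 10 B cell genes 2 were lower (20.0%, beside 4.32% of all genes), Vpreb3 (-0.87) and Cd79a (-0.34), and none was higher. Their median was -0.13. Cd79a read 0.30 at 0 h and -0.04 at 21 h, and Cd79b -0.50 and -0.64. The neutrophil proteins S100a8 (-0.28) and S100a9 (-0.21 ± 0.06 over 2 probes) lay below 0, with Mpo at 0.14 and Elane at 0.06. Neutrophil, mast cell and dendritic cell lists had no gene past the rule. In these bulk samples fewer cells of a type and less RNA per cell cannot be told apart, and the part of other cells in the results was not tested.

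Embryo genes, which the shared reference supplies, differed by list. Neuronal genes had a median of 0.06 (0.04 with the running median taken away), with 22 of 32 above 0, 1 past the rule (Cntn1, 0.80, 1 probe), 5 with every probe higher and 2 with every probe lower. Muscle genes had none of 40 past the rule, with a median of -0.01, and the Hbb-b1 globin differed by 0.06 ± 0.16 over 21 probes. Collagens and matrix genes had 9 of 59 higher (15.3%, beside 5.23% of all genes) and 2 lower (3.39%, beside 4.32%), with a median of 0.02, which went to -0.01 with the running median taken away. The highest were Adamts3 (1.17), Svep1 (0.93) and Nid2 (0.73), each on 1 probe with a number under 2000. Of these 59 genes 27 had probes only among numbers 1 to 6000. Col1a2, a chain of type I collagen, differed by 0.43 ± 0.37 over 2 probes and its partner Col1a1 by 0.08 ± 0.26. Imprinted fetal growth genes had the highest median, 0.11 over 11 genes (0.09 with the running median taken away); Igf2 differed by 0.16 ± 0.06, and Plagl1 was past the rule at 0.64 on 1 probe.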

How the data were processed

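The authors' deposited table holds 1 processed log ratio per probe and array, read here as log10; the sources used here do not give scanner, background correction, normalization, the dye of the numerator or the log base. Base and centring of the deposited values therefore stay unknown, and the direction, macrophage over embryo, rests on the levels of macrophage and embryo genes. Spot intensities were not used, which leaves signal over background unknown, and 1 array per group limits the precision. Missing values numbered 180 at 0 h, 1104 at 0.5 h and 154 at 21 h.

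Probes with 1 symbol in the platform annotation (14759; 170 had several, 4899 none) were named, 14628 updated through Entrez identifiers to RefSeq GRCm38.p6. Arrays were centred on the median of probes with both values, probes were averaged per gene, and 0 h was subtracted from 21 h. The size rule was 2-fold. No test, p-value or interval was computed. The differences at other times share the 0 h array, so the text gives levels on each array side by side.

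The text names genes with 2 or more probes all past the rule, list members past it, otherwise the highest and lowest of a list, the 10 largest differences in each direction on 1 probe and defining cell markers; where these were many it prints examples. Other genes, shown for how their probes agreed, were picked with the values in view. The members and the 50 lists were chosen with earlier results of these data known. Alternatives covered centring, scaling, probe averaging, missing values, baseline, size rule, log base and probe position. The steps were run on simulated arrays with planted differences, less noise than the spread between probes here and no trend over probe numbers. That checks the arithmetic of the steps and not how sure the calls in these data are. The scripts ran under Python 3.11.15 with statsmodels 0.14.6, matplotlib 3.10.9, pandas 2.3.3 and numpy 2.4.6.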

Additional observations from a re-analysis of the deposited data

How the results depend on the processing

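Of the main counts of 468 genes higher, 387 lower, 11 with every probe higher and 14 with every probe lower, the size rule moved all 4. At 1.5-fold they were 1246, 955, 67 and 61, and at 3-fold 148, 132, 0 and 6. Read as base 2, the same 2-fold rule left 6, 10, 0 and 0. Against the mean of the 0, 2 and 7 h arrays in place of 0 h alone, 7 genes had every probe higher and 27 every probe lower. With the running median removed and the running spread over probe numbers scaled, an alternative chosen after seeing the data, 5 genes had every probe lower. Of the 25 genes described above with every probe past the rule, 17 stayed so against the mean of 3 arrays. With the running median removed 19 stayed, and with the spread scaled too 13. Under the alternatives that changed neither the size rule nor the log base, the genes higher lay between 385 and 483 and the genes lower between 273 (spread scaled) and 452 (mean of the 0, 2 and 7 h arrays). The naming rule gave 173 genes past the size rule, not all of them printed in the text. Of these, 133 were still past it against the mean of 3 arrays, 141 with the running median removed and 126 with the spread scaled too. None of the 173 changed sign under any alternative run. All were picked for a 2-fold difference on these same arrays, so an unchanged sign is a weak check. The median of Interferon-inducible GTPases, -0.15 against 0 h, was 0.03 against the mean of the 0, 2 and 7 h arrays, and the median of Abundant macrophage identity genes, 0.07, was 0.01 once a loess curve over the mean ratio was subtracted. No replicate could be left out, since each group held 1 array. No paired analysis was possible because each group held 1 array and the labels give no replicate numbers.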

Other observations

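The largest differences on 1 probe rested on the 0 h array in some genes. Slc3a1, a subunit of an amino acid carrier, read 1.21 at 0 h and between -0.61 and -0.39 on the other 4 arrays, which gives -1.70 at 21 h. Vezf1, a zinc finger factor, read 1.02 at 0 h and between -0.71 and -0.46 elsewhere, which gives -1.53. Espn, an actin bundler of hair cells, read 1.16 at 0 h, 0.54 at 0.5 h and 0.03 at 21 h. These probes are numbered 23, 90 and 15, near the start of the array. Eif2s3x, an X-linked subunit of a translation initiation factor, read 1.55 at 0 h and 0.21 at 21 h, with -0.08 at 0.5 h and 0.53 at 7 h. Platr10 (-1.86), Hsd3b6 (-1.44), Golt1b (-1.14), Ceacam18 (-1.12), Prss32 (-1.03) and 2010310C07Rik (-1.03) were the remaining genes of the 10 lowest. Their probes, like that of Eif2s3x (12763), lie far from the start, from 8240 (Ceacam18) to 17348 (Hsd3b6).

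On the higher side the 10 were Arhgap35 (1.36), Adamts3 (1.17), 1100001I12Rik (1.13), Fam234a (1.07), Ttc36 (1.02), Gtf2a2 (1.01), 1700021F02Rik (0.98), Cd55 (0.96), Sh3bp2 (0.95) and Ctsq (0.95). In that order their probes are numbered 896, 730, 732, 766, 98, 6391, 5164, 759, 37 and 4341. All but that of Gtf2a2 thus lie among numbers 1 to 6000, where higher probes gather. Arhgap35 read -0.48 at 0 h, -0.28 at 7 h and 0.88 at 21 h. Gtf2a2, a subunit of the general factor TFIIA, read -0.09 at 0 h, lay between -0.33 and -0.12 at 0.5, 2 and 7 h, and read 0.92 at 21 h. Sh3bp2, an adaptor of Syk signalling, read 0.21 at 0 h and 1.16 at 21 h. Ctsq was higher at 2 h (1.30) than at 21 h (0.35), and 1700021F02Rik at 0.5 h (1.57) and 2 h (1.70) than at 21 h (1.10).

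The 4810 probes with no symbol here gave 5.93% higher and 13.99% lower, with a median difference of -0.03.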
